A study of Mus musculus with 12 samples.

Results

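The genes described here are 10 genes of blood vessel endothelium: the transcription factors Sox17 and Sox18, the receptors Kdr and Flt1, the junction genes Cdh5, Esam and Cldn5, and Emcn, Plvap and Egfl7, which code for proteins of the endothelial surface or its surroundings. They were taken by symbol, as every probe set that the platform annotation pairs with 1 of these symbols and no other. This gave 10 of 12393 genes, the members, and 17 of 20380 probe sets with a single symbol. They were measured on 12 arrays of cultured fetal mouse kidney of the C57BL/6 strain. There were 6 wildtype kidney cultures, described as normal, and 6 beta-catenin activated cultures, described as carrying tumors. Pregnant mice of both groups were injected with tamoxifen into the peritoneum (2 mg for each 40 g of weight) at 10.5 days after mating, the day on which the kidneys were dissected for 3 to 4 days of culture. The labels name neither the Cre driver nor the beta-catenin allele, so which cells of the kidney carried activated beta-catenin is not known here. The numbers in the sample titles fall into 2 runs, 3014 to 3020 and 3109 to 3115, each with 3 wildtype and 3 activated arrays. The runs are called lower and higher below, and the labels do not say what they are. Wildtype and activated 1 to 3 form the lower run, and 4 to 6 the higher. Nothing in the labels ties the samples to separate animals, so p-values measure only the spread between these samples, which may be partly technical. On a log2 scale, the signal of Y-linked genes was 4.30 in wildtype 2, 4.48 in wildtype 5 and 4.24 in activated 6. It was 7.38 or higher in the other arrays, so the samples differ in sex and are not all repeats of 1 sample.

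Endothelial cells line all blood vessels. SOX17, SOX18 and SOX7 form the SOXF group of transcription factors, which act in the specification and remodelling of vessels, SOX17 above all in arteries. Kidney endothelium forms from vessels that grow into the organ and from precursors already in its mesenchyme, and it is guided by VEGF-A from the developing epithelium through the receptors KDR and FLT1. Beta-catenin is both the nuclear carrier of canonical Wnt signals and a partner of VE-cadherin, the product of Cdh5, at endothelial junctions. In whole kidneys, fewer endothelial cells and less RNA per endothelial cell cannot be told apart.

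RefSeq promoter windows (assembly GRCm38.p6, 250 bases before the start) were matched for 5 members in 7 windows: Kdr, Flt1, Emcn and Cldn5 with a window each, and Egfl7 with 3. Sox17, Sox18, Cdh5, Esam and Plvap had no entry. The short motifs searched, on both strands, were AGGAA, the core of ETS factor sites, AACAAT, a site of SOX factors, and CTTTGA, a site of the TCF/LEF factors through which beta-catenin acts. The stretches below are shown because they hold the motif matches of the Flt1, Emcn and first Egfl7 windows, with matches in capitals on either strand, 5′ to 3′ along the gene. Flt1 lies on the minus strand at chr5:147726050-147726150, and the plus strand carries Emcn at chr3:137340895-137341043 and Egfl7 at chr2:26580858-26581049.
Flt1: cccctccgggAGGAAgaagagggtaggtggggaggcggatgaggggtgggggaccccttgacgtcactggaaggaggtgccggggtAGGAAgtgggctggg
Emcn: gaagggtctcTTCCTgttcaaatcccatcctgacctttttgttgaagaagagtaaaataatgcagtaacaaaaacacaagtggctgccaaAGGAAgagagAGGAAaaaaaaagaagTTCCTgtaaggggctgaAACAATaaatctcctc
Egfl7: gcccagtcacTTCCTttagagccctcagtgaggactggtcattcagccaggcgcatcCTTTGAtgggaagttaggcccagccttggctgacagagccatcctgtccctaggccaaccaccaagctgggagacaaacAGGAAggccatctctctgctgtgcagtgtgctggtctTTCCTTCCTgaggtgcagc
The ETS core was in 4 of the 7 windows, against 60.3% of 32851 RefSeq mouse windows of this length. AACAAT was in 1 window, that of Emcn (9.42% of all windows). CTTTGA was in 1 window, the Egfl7 window shown (13.8% of all windows). Such matches describe these letters and are not evidence of binding.

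Levels are given as log2(intensity + 16) after quantile normalisation, and differences as activated minus wildtype on this scale, which understates changes of dim genes. All 10 members had a mean above the highest of 27 bacterial control probe sets, at 5.49. The targets of the Wnt signal, as a check of the labels, had 10 of 11 measured genes above 0 over all 12 arrays, with a median difference of 1.35. By run that median was 2.53 (lower) and 0.37 (higher). Apcdd1 was called higher in both runs and over all 12 arrays, and Axin2, Dkk1, Nkd2, Notum and Wif1 in the lower run. Activated 2 stood apart in the log2 ratio of 5′ to 3′ Gapdh control signal, at 0.07, followed by activated 6 at -1.06 and wildtype 2 at -1.13, where the other 9 arrays lay between -2.61 and -2.04. The part of this ratio in the members' levels was not tested beyond the model with a term for it given for Sox17.

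Every one of the 10 genes had a higher mean in the activated cultures, yet none passed the threshold of 0.05 on the adjusted p. The differences over all 12 arrays ran from 0.19 for Kdr to 0.73 for Sox17, with a median of 0.38, where the median over all genes was -0.01. Over all genes, 46.6% had a difference above 0. The members were chosen with earlier results of these data known, so such shares are a description and not a test of them. In limma's test, 0 of 10 members were called, against a background of 0.0242% of genes (3 genes), and 2 members, Sox17 and Sox18, were higher at an unadjusted p under 0.05, against 3.01% of genes. In no member were all activated arrays above all wildtype arrays, against 0.29% of genes. Wildtype 3 set the overlap for Sox17: without it the groups of Sox17 no longer overlapped. The members' summed intensity, on the deposited scale, lay between 1206 and 2057 (median 1277) in wildtype arrays and between 1621 and 2187 (median 1929) in activated arrays.

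**Figure D1:**
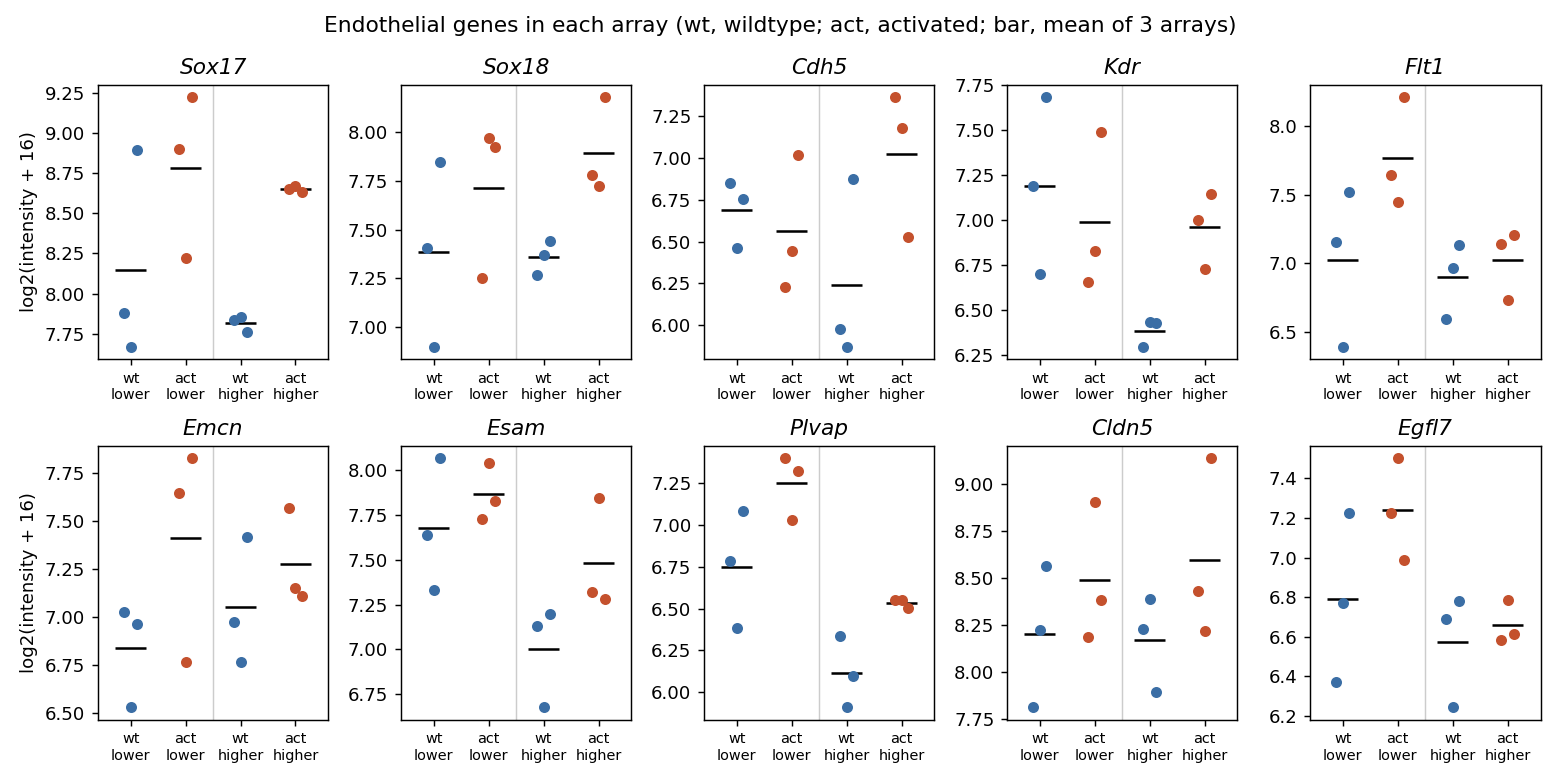
Levels (vertical axis) of the 10 endothelial genes as log2(intensity + 16), in groups of 3 arrays by genotype and run. Points are arrays and bars are group means; in the higher run the groups of Sox17, Sox18, Kdr, Esam and Plvap do not overlap, and all 10 overlap in the lower run.

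Sox17, the SOXF factor of arterial endothelium, had the largest difference of the 10. In the lower run it read 7.88, 7.67 and 8.89 in wildtype 1 to 3 and 8.90, 8.22 and 9.22 in activated 1 to 3. Arrays of the higher run gave 7.83, 7.85 and 7.76 in wildtype 4 to 6 and 8.65, 8.67 and 8.63 in activated 4 to 6. The higher run thus held 2 narrow groups with a clear gap, whereas wildtype 3 of the lower run lay at the level of the activated arrays. The means were 7.98 ± 0.45 (SD, n = 6) in wildtype and 8.72 ± 0.33 (SD, n = 6) in activated cultures. The difference was 0.73 (SE 0.21), or 1.66-fold, with an adjusted p of 0.388 in limma's test. In the higher run alone it was 0.83 (SE 0.12), or 1.78-fold (limma adjusted p = 0.147), and in the lower run 0.63 (SE 0.34; limma adjusted p = 0.801). These values came from the brighter Sox17 probe set. The dimmer was at 0.28 (SE 0.25) over all 12 arrays. In the higher run it was at 0.40 (SE 0.29), with overlapping groups. An alternative fit had terms for run and for the 5′ to 3′ control ratio. There Sox17 was at 0.86 and passed the threshold (limma adjusted p = 0.0322), and 52 of 12393 genes were called. Over the 23 alternatives the Sox17 difference lay between 0.51 and 0.92 and its limma adjusted p between 0.0322 and 0.727.

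Sox18, the SOXF factor of blood and lymphatic vessels, had the smaller difference of the SOX genes. It read 7.41, 6.90 and 7.85 in wildtype and 7.25, 7.97 and 7.92 in activated arrays of the lower run. Its higher-run values were 7.27, 7.37 and 7.44 against 7.78, 7.72 and 8.18. Only the higher run separated the genotypes; in the lower run activated 1 was below wildtype 1 and wildtype 3. The means were 7.37 ± 0.31 (SD, n = 6) and 7.81 ± 0.31 (SD, n = 6), a difference of 0.43 (SE 0.18; limma adjusted p = 0.737). It was 0.33 (SE 0.30) in the lower and 0.54 (SE 0.17) in the higher run, with adjusted p of 0.941 and 0.657. The remaining SOXF gene, Sox7, was at 0.32 over all 12 arrays, with 0.01 in the lower and 0.63 in the higher run. Of the 14 other Sox genes measured, Sox7 among them, 8 had a mean above the bacterial controls. Over the 14, 5 had a difference above 0 with a median of -0.09, and none was called. Among these, Sox9, a factor of ureteric tips and early nephrons, was at -0.37 and Sox4 at -0.13.

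With the probe sets used here, the receptors of VEGF had their larger differences in different runs, with no call between the runs. Kdr, VEGF receptor 2 and the main signalling receptor, read 7.19, 6.70 and 7.68 in wildtype against 6.66, 6.83 and 7.49 in activated arrays of the lower run. The higher-run arrays were at 6.30, 6.43 and 6.43 against 7.00, 6.73 and 7.15. So the genotypes were interleaved in the lower run (difference -0.20, SE 0.32) and apart in the higher run (0.57, SE 0.19), with limma adjusted p of 0.971 and 0.704. Flt1, VEGF receptor 1, which binds VEGF-A tightly and signals weakly, read 7.15, 6.39 and 7.52 against 7.65, 7.45 and 8.21 in the lower run. The corresponding higher-run values were 6.59, 6.96 and 7.14 against 7.14, 6.73 and 7.20. Flt1 had its larger difference in the lower run (0.75, SE 0.32) and 0.13 (SE 0.21) in the higher, with limma adjusted p of 0.664 and 0.948. A dimmer Flt1 probe set did not share this, at 0.41 in the lower and 0.47 in the higher run. The dimmest, with a mean below the bacterial controls, was at 0.58 and -0.10. Over all 12 arrays Kdr averaged 6.79 ± 0.54 (SD, n = 6) in wildtype and 6.97 ± 0.31 (SD, n = 6) in activated cultures, with an adjusted p of 0.958 in limma. Flt1 averaged 6.96 ± 0.41 (SD, n = 6) in wildtype and 7.40 ± 0.50 (SD, n = 6) in activated cultures, with an adjusted p of 0.869. When the runs' differences were set against each other, Kdr was at 0.77 (SE 0.38) and Flt1 at -0.62 (SE 0.41), with limma adjusted p of 0.859 and 0.977, so neither passed the test.

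Among the junction genes, Cdh5 codes for VE-cadherin of adherens junctions, Cldn5 for a claudin that seals tight junctions and Esam for an adhesion molecule found at tight junctions. Cdh5 read 6.85, 6.46 and 6.76 in wildtype against 6.23, 6.44 and 7.01 in activated arrays of the lower run. Higher-run arrays lay at 5.98, 5.87 and 6.87 against 7.36, 7.18 and 6.53. Activated 6 and wildtype 6 thus crossed in the higher run, where the mean difference was 0.78 (SE 0.32; limma adjusted p = 0.775; 0.45 when both Cdh5 probe sets were averaged), and the lower run had -0.12 (SE 0.28; adjusted p = 0.982). The sign in the lower run was not stable: it was 0.22 when both Cdh5 probe sets were averaged and 0.04 without activated 1. Run against run, Cdh5 was at 0.91 (SE 0.44; limma adjusted p = 0.843) with the brighter probe set, at -0.46 with the dimmer and at 0.23 with their mean. Over all 12 arrays it averaged 6.46 ± 0.44 (SD, n = 6) in wildtype and 6.79 ± 0.45 (SD, n = 6) in activated cultures, with an adjusted p of 0.911 in limma.

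Esam read 7.64, 7.33 and 8.07 in wildtype against 7.73, 8.04 and 7.83 in activated arrays of the lower run. Values of the higher run were 7.13, 6.68 and 7.20 against 7.32, 7.84 and 7.28, so the groups did not overlap, with wildtype 6 and activated 6 the nearest arrays. Its difference was 0.19 (SE 0.23) in the lower and 0.48 (SE 0.22) in the higher run, with limma adjusted p of 0.959 and 0.785. Cldn5 read 7.81, 8.22 and 8.57 against 8.18, 8.91 and 8.38 in the lower run. The second set of values, from the higher run, was 8.23, 8.39 and 7.89 against 8.43, 8.21 and 9.14. Each genotype had arrays within the other's range in both runs, and the high values of Cldn5 came from activated 2 and activated 6. The difference of Cldn5 over all 12 arrays was 0.36 (SE 0.18) and that of Esam 0.33 (SE 0.21), with limma adjusted p of 0.845 and 0.894.

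Emcn, Plvap and Egfl7 code for endomucin, a sialomucin of the endothelial surface, for the protein of the diaphragms that span fenestrae and caveolae, and for a secreted protein that endothelial cells lay down in the matrix. Emcn read 7.03, 6.53 and 6.97 in wildtype against 7.65, 6.76 and 7.83 in activated arrays of the lower run. For the higher run the values were 6.98, 6.76 and 7.42 against 7.57, 7.15 and 7.11. Activated 2 was the low array in the first case and wildtype 6 the high one in the second, and the differences were 0.57 (SE 0.31) and 0.22 (SE 0.22), with limma adjusted p of 0.809 and 0.91, and 0.40 (SE 0.20; adjusted p = 0.845) over all 12 arrays. Plvap read 6.79, 6.38 and 7.08 against 7.40, 7.03 and 7.33 in the lower run. Its levels in the higher run were 6.33, 5.91 and 6.10 against 6.55, 6.55 and 6.50. Only wildtype 3, which lay above activated 2, kept the Plvap groups from separating in both runs. Plvap had the most even difference over the runs, 0.50 (SE 0.26) and 0.42 (SE 0.20), with limma adjusted p of 0.786 and 0.787, and the test of run against run gave -0.08. With a term for run its difference of 0.46 had an SE of 0.15 in place of 0.23 and a limma adjusted p of 0.351 in place of 0.845.

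Egfl7 read 6.37, 6.77 and 7.23 in wildtype against 7.22, 7.50 and 6.99 in activated arrays of the lower run. Higher-run levels were 6.69, 6.24 and 6.78 against 6.58, 6.79 and 6.61. The higher run had a difference of 0.09 (SE 0.21) and the lower run 0.45 (SE 0.28), with limma adjusted p of 0.966 and 0.854. The probe sets of Egfl7 disagreed in the higher run: the brightest, used here, had overlapping groups, whereas others were at 0.75 with no overlap, at 0.37 and at 0.15, and the mean of all 4 was at 0.34 (SE 0.17; limma adjusted p = 0.851). Over all 12 arrays Egfl7 was at 0.27 (SE 0.20; limma adjusted p = 0.916), or 0.41 with the mean of its probe sets.

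**Figure D2:**
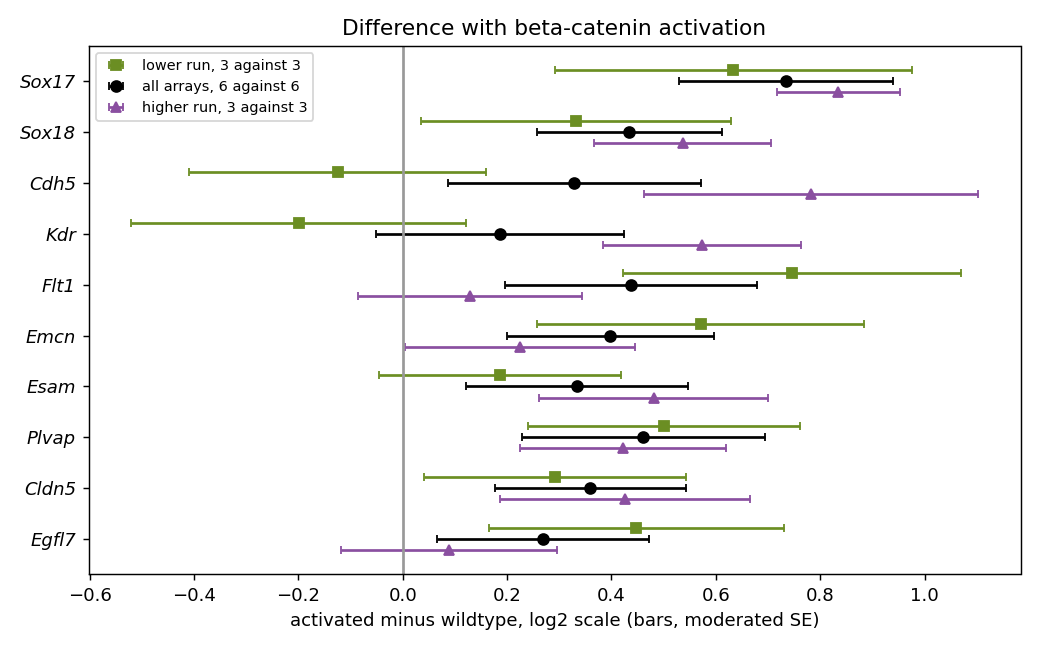
Difference, activated minus wildtype, of each of the 10 genes with its SE, over all 12 arrays and within each run. All 10 differences over 12 arrays lie above 0, Cdh5 and Kdr lie below 0 in the lower run, and no difference passed an adjusted p of 0.05.

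By run, the activated mean was higher in 8 of 10 members in the lower run, where 45.6% of all genes were above 0, and in 10 of 10 in the higher run, where 49.8% were. The median difference was 0.39 in the lower and 0.45 in the higher run, where the medians over all genes were -0.03 and 0.00. In the lower run 0 members were called by limma (0.597% of genes were) and 1, Flt1, was higher at an unadjusted p under 0.05 (3.54% of genes). In the higher run 0 members were called (0.00807% of genes) and 4, Sox17, Sox18, Cdh5 and Kdr, were higher at an unadjusted p under 0.05 (3.2% of genes). All activated arrays lay above all wildtype arrays in 5 members of the higher run, against 5.61% of genes, and in 0 of the lower run, against 5.41%. The count of 0 in the lower run changed when single arrays were left out. It was 5 without wildtype 3, 4 without activated 2 and 1 without activated 1, and it was 2 without quantile normalisation. The share of all genes in these settings is not given here, and groups with an array left out separate more readily. Both runs had a difference above 0 in 8 of 10 members, against 25.4% of genes, and no member separated in both. These counts are not of independent genes, since the arrays shared part of their deviation over the members. When run was tested against run 0 members were called, against 0.331% of genes, and 6 of 10 had a larger difference in the higher run, where 52.7% of all genes did.

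The arrays shared part of their deviation over these genes. Averaged over the 10 members as deviation from each gene's mean, wildtype 1 to 6 were at -0.10, -0.38, 0.35, -0.38, -0.47 and -0.21, and activated 1 to 6 at 0.18, 0.20, 0.51, 0.13, 0.05 and 0.12. Wildtype 3 was the only wildtype array above 0, and it was the highest of its 3 arrays in 8 of 10 members, while wildtype 2 was the lowest in 8 of 10. Activated 3 lay above the gene's own mean in all 10 members. Taken against the mean of the 8 members other than Sox17 and Sox18, Sox17 was at -0.43, -0.38, 0.21, -0.14, 0.00 and -0.42 in wildtype 1 to 6 and at 0.36, -0.35, 0.39, 0.21, 0.32 and 0.24 in activated 1 to 6. With this probe set Sox17 stood above the other endothelial genes in 5 of 6 activated arrays, all but activated 2, and among the wildtype arrays in wildtype 3. With the dimmer Sox17 probe set it did so in 3 of 6 activated arrays, since activated 2, 3 and 4 were at -0.12, -0.61 and -0.57. Sox18 taken in the same way was at -0.14, -0.39, -0.08, 0.05, 0.27 and 0.02 in wildtype arrays. In activated arrays it was at -0.53, 0.16, -0.15, 0.10, 0.13 and 0.55, a range that held all the wildtype values.

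**Figure D3:**
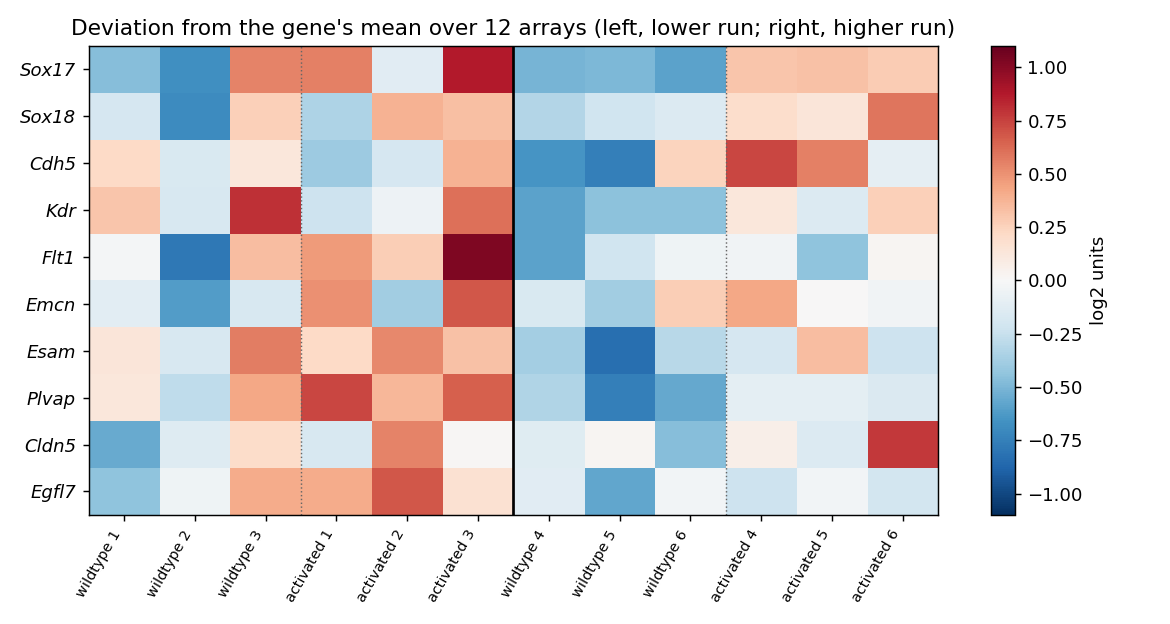
Heat map of each gene's deviation from its own mean over 12 arrays (log2 units, red above and blue below), with genes in rows and arrays in columns, the lower run left of the black line and the higher run right of it. Wildtype 3 is above the mean in 9 of 10 genes and activated 3 in all 10, while wildtype 2 and wildtype 4 are above it in none.

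The runs themselves were compared within each genotype, as higher minus lower run. In wildtype cultures 9 of 10 members were lower in the higher run, Emcn being the exception at 0.21, and the median was -0.27; over all genes 46.8% were above 0. In limma's test 0 of 10 were called, where 5.1% of genes were, although Kdr (-0.80, SE 0.26; adjusted p = 0.125), Esam (-0.68, SE 0.24; adjusted p = 0.149) and Plvap (-0.64, SE 0.25; adjusted p = 0.2) had all arrays of the higher run below all of the lower, as had 13% of genes. These counts turned on wildtype 2 and wildtype 3. Without wildtype 2, Kdr was at -1.05 and passed the threshold (limma adjusted p = 0.0479), where 470 of 12393 genes were called. Without wildtype 3 there were 6 members above 0 and a median of 0.02. The count without overlap was 5 without wildtype 2, with the share of all genes in that setting not given here.

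In activated cultures 3 of 10 members were higher in the higher run (49.7% of all genes), and the median was -0.13. None was called, where 2.78% of genes were, and Flt1 (-0.74, SE 0.25; limma adjusted p = 0.21), Plvap (-0.72, SE 0.21; adjusted p = 0.142) and Egfl7 (-0.58, SE 0.22; adjusted p = 0.275) had no overlap between the runs, against 8.73% of genes lower in the higher run. With arrays weighted by their quality Plvap was at -0.80 and passed the threshold (limma adjusted p = 0.03), where 805 of 12393 genes were called. Without activated 3 there were 6 members above 0, and without activated 1 there was 1. The count without overlap was 5 without activated 2, with the share of all genes in that setting not given here. Plvap was lower in the higher run in both genotypes. Sox17 was at -0.33 in wildtype and -0.13 in activated cultures, and Sox18 at -0.02 and 0.18, without a call. Genes of other cell types differed by run as well. For 8 erythroid genes the summed intensity lay between 12110 and 14370 in lower-run wildtype and between 2563 and 3179 in higher-run wildtype. For 12 macrophage genes it lay between 1005 and 1710 and between 1983 and 2698, in the same order. In limma's test the globin genes Hba-x, Hbb-bh1 and Hbb-y fell from the lower to the higher run in both genotypes, with -2.07, -3.21 and -1.89 in wildtype cultures. Hbb-y, with a mean of 12.25, was the brightest of the 8 erythroid genes. No other gene of the 8 was called, and 3 were above 0 in wildtype cultures, Epor at 0.12 among them. The macrophage genes Cd68, Csf1r, Mrc1 and Tyrobp rose in both genotypes and Laptm5 in activated cultures, and the smooth muscle gene Acta2 rose in both, by 0.97 in wildtype cultures. Tagln, also of smooth muscle, and Podxl, listed here for podocytes, rose in wildtype cultures, by 1.03 and 1.29. Of the 6 genes listed for podocytes 4 were above 0 there, and Nphs1 was at -0.26. Rgs5 rose by 0.87 in activated cultures. Of the fetal kidney genes, the nephron progenitor genes Six2 and Cited1 rose in activated cultures, by 1.84 and 2.47, and the stromal gene Foxd1 fell by 0.65 in wildtype cultures. The Wnt targets Apcdd1, Axin2, Dkk1, Nkd2, Notum, Sp5 and Wif1 fell in activated cultures. The part of these cells in the run differences of the members was not tested.

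Several members (4 of 10) had more than 1 probe set, which can bind different stretches of the transcripts. Over all 12 arrays, tested each alone, the Sox17 probe sets were at 0.73 and 0.28 (SE 0.25), the Cdh5 probe sets at 0.34 and 0.33, those of Flt1 at 0.44, 0.44 and 0.24, and those of Egfl7 at 0.14, 0.27, 0.68 and 0.56. The dimmer Sox17 probe set read 6.32, 6.44, 7.64, 6.31, 6.73 and 6.30 in wildtype 1 to 6 and 7.38, 6.86, 6.64, 6.29, 6.87 and 7.38 in activated 1 to 6. It thus did not separate the genotypes in the higher run, where activated 4 lay with the wildtype arrays, although wildtype 3 was again high. The mean of both probe sets put the Sox17 difference at 0.51 over all 12 arrays, 0.40 in the lower and 0.62 in the higher run. Between the runs, the mean of probe sets put Cdh5 at -0.12 in wildtype and 0.10 in activated cultures, where the brighter probe set had -0.45 and 0.46, and Egfl7 at -0.51 in wildtype, where the brightest had -0.22. Of the 17 probe sets, 15 had a mean above the bacterial controls; the second Cdh5 probe set (5.23) and the third of Flt1 (5.40) were below. All 17 differences were above 0, where 48.5% of all single-symbol probe sets were, and none was called (0.00981% of probe sets). These 17 are not independent, since several are of the same gene and the members were chosen with earlier results known.

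**Figure D4:**
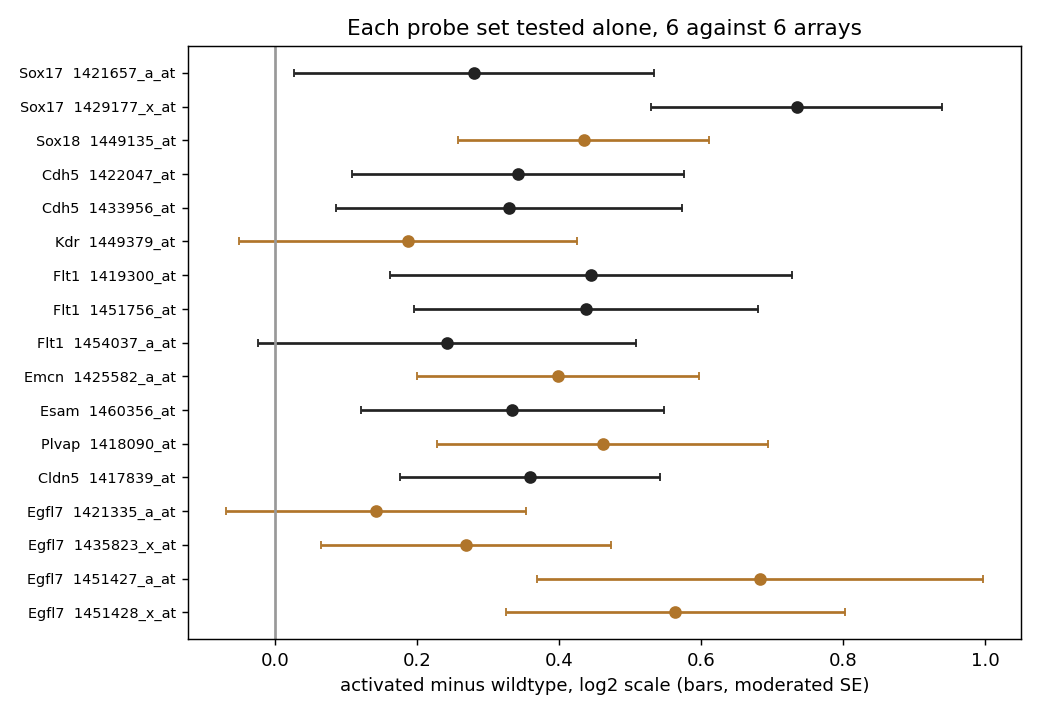
Difference, activated minus wildtype over all 12 arrays, with SE, of each of the 17 probe sets of the 10 genes, tested alone. All lie above 0, and the Sox17 probe sets differ from each other, at 0.73 and 0.28.

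Other genes listed for the endothelium came from 3 further lists, of the endothelial surface, endothelial transcription factors and arteries, veins and Notch signalling. Of 55 measured, 47 had a mean above the bacterial controls. Not all are confined to endothelium: Foxc2 is also a factor of mesenchyme, and Jag1 is also counted among the fetal kidney genes below. Over all 12 arrays 39 of the 55 were above 0, with a median of 0.17. In limma's test 10 were higher and 2 lower at an unadjusted p under 0.05 (3.01% of all genes were higher), and 0 were called (0.0242% of genes). Some common markers of endothelium were not seen above the bacterial controls: Pecam1 had a mean of 4.63, Tie1 of 4.98 and Vwf of 4.33. Surface and signalling genes held the larger values, with 17 of 21 above 0 and a median of 0.26, while the transcription factors had 9 of 17 above 0 and a median of 0.03. Cd34, a sialomucin of endothelial and blood progenitor cells, averaged 6.90 ± 0.46 (SD, n = 6) in wildtype and 7.76 ± 0.20 (SD, n = 6) in activated cultures, a difference of 0.86 (limma adjusted p = 0.302). Lmo2, a partner of TAL1 in blood and vessel formation, averaged 7.52 ± 0.36 (SD, n = 6) in wildtype and 8.23 ± 0.19 (SD, n = 6) in activated cultures, with 0.69 in the lower and 0.72 in the higher run (limma adjusted p = 0.308 over all 12 arrays). Cd93 was at 0.65 and Icam2, an adhesion molecule, at 0.58, while Ramp2, the partner of the adrenomedullin receptor, was at -0.34 and Foxc1 at -0.33. The genes of arteries, veins and Notch had 13 of 17 above 0 and a median of 0.17. Hey2, a Notch target of arterial endothelium, was at 0.71, and its relative Hey1 fell by 1.23 from the lower to the higher run in activated cultures (limma adjusted p = 0.00555). Foxc2, a factor of vessels and mesenchyme, fell by 0.58 between the runs in wildtype cultures (limma adjusted p = 0.0137). Aplnr, the apelin receptor of sprouting and venous endothelium, was at 1.24 over all 12 arrays and 1.98 in the higher run, and it fell by 2.42 between the runs in wildtype cultures (limma adjusted p = 0.004), where it read 4.17 ± 0.04 (SD, n = 3) in the higher run, below the bacterial controls.

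The ligands and partners of VEGF and angiopoietin signalling had 12 of 14 above 0 with a median of 0.31, or 0.51 in the lower and 0.16 in the higher run, and none called. Vegfc, the ligand of the lymphatic receptor FLT4, averaged 6.73 ± 0.27 (SD, n = 6) in wildtype and 7.43 ± 0.36 (SD, n = 6) in activated cultures, a difference of 0.70 (limma adjusted p = 0.345; 0.099 with a term for run). Flt4 itself was at 0.56. Vegfa, the ligand of KDR and FLT1, was at 0.72 in the lower run but -0.31 in the higher run. In wildtype cultures Vegfa rose by 0.90 from the lower to the higher run (limma adjusted p = 0.032), where Kdr was at -0.80. The genes of barrier endothelium and of the Norrin receptor, through which Wnt signals act on brain and retinal vessels, had 4 of 13 above 0 and a median of -0.04, and Foxq1 of this list rose by 1.16 between the runs in each genotype (limma adjusted p = 0.0282 and 0.032). Lymphatic endothelium had 1 of 4 above 0, Prox1, and a median of -0.21. Prox1, with a mean of 4.96, lay below the bacterial controls, and 8 of the 13 barrier genes had a mean above them.

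Mural cells, the pericytes and smooth muscle cells that wrap vessels, had 10 of 12 genes above 0 with a median of 0.36, close to that of the 10 endothelial genes. In the higher run 8 of 12 had all activated arrays above all wildtype arrays, against 5.61% of all genes, and the summed intensity lay between 6773 and 7262 in wildtype and between 8815 and 10880 in activated cultures. In the lower run the sums were 4819 to 5133 and 5076 to 5379. Rgs5, a regulator of G protein signals in pericytes, averaged 9.35 ± 0.27 (SD, n = 6) in wildtype and 10.16 ± 0.54 (SD, n = 6) in activated cultures, a difference of 0.81 (limma adjusted p = 0.345), with 1.19 in the higher run. Pdgfrb, the pericyte receptor of PDGF-B, was at 0.38. Macrophage genes had 8 of 12 above 0 with a median of 0.10, erythroid genes 1 of 8 with -0.15, platelet genes 3 of 5 with 0.16 and podocyte genes 4 of 6 with 0.05. Only 4 of the 8 erythroid and 3 of the 5 platelet genes had a mean above the bacterial controls. Genes of the fetal kidney's own compartments had 1 of 9 above 0 and a median of -0.58, with -0.93 in the lower and -0.22 in the higher run. Six2 (-2.01) and Foxd1 (-0.93) were called lower in the lower run. The part of a changed mix of cells in the members' differences was not tested.

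**Figure D5:**
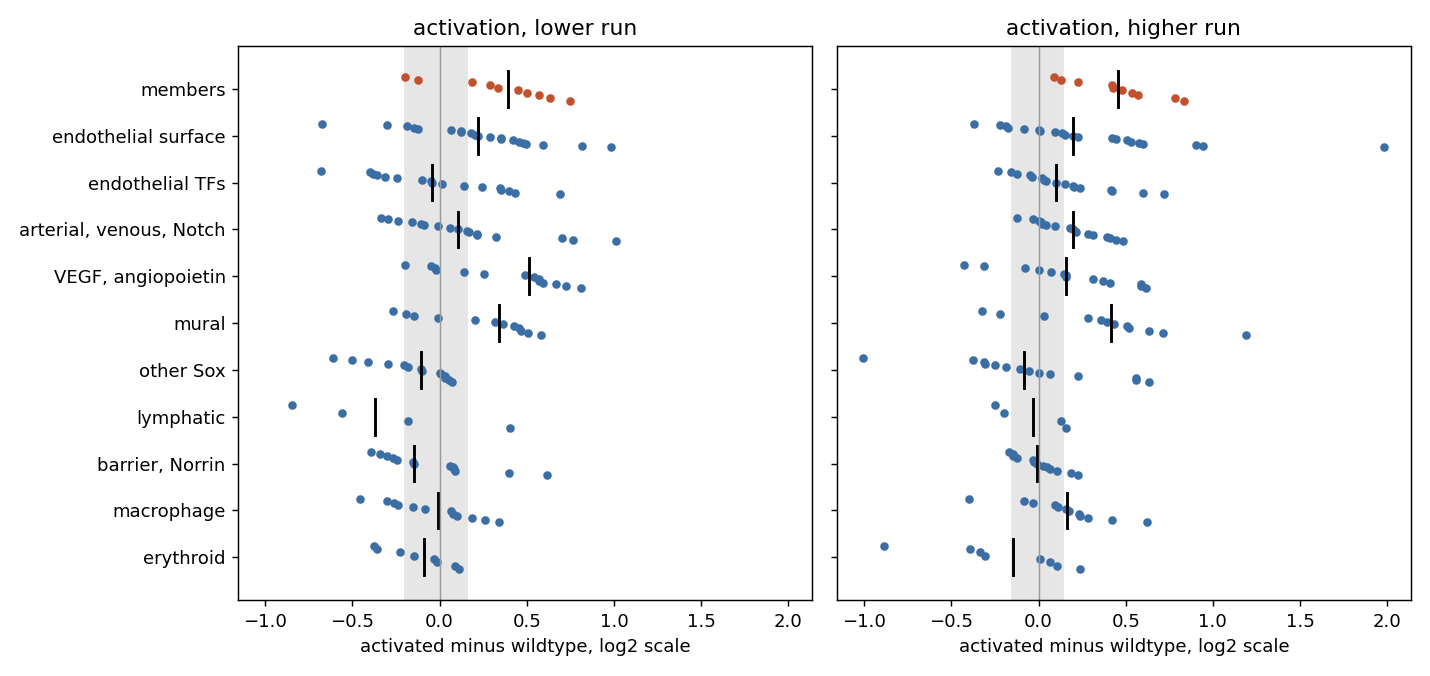
Differences, activated minus wildtype on the log2 scale, of the genes of 11 lists, with the lower run in the left panel and the higher run in the right. Points are genes, black bars are list medians and the grey band spans the quartiles of all genes; the 10 endothelial genes (members) have medians of 0.39 and 0.45, and the mural cell genes 0.34 and 0.41.

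Genes most like Sox17 and Sox18 were ranked by Pearson's r over the 12 arrays after the mean of each genotype and run was subtracted, among 8465 genes brighter than the bacterial controls. This is a description over arrays that share runs and array quality. Those most like Sox17 were Dgkz, Pf4, Tmem45a, Csf1r, Miga2 and Ctss, with r from 0.96 down to 0.93 (0.92 down to 0.84 without wildtype 3 and activated 2), and 0 of its 50 nearest genes were in the endothelial lists, which held 0.697% of the ranked genes. Csf1r, the receptor that marks macrophages, had an activation difference of 0.05 where Sox17 had 0.73. The summed intensity of the 12 macrophage genes in the lower run lay between 1005 and 1710 in wildtype and between 1017 and 1500 in activated cultures, and its part in the Sox17 levels was not tested. Sox18 had Isy1, Nme5, Taf1c, Gpc4, Plk2 and Srpx as its nearest genes, with r from 0.92 down to 0.89, and 2 endothelial genes, Nos3 and Kdr, in its nearest 50. Kdr had 3, namely Flt1, Sox18 and Aplnr, Flt1 had 2, Kdr and Ptprb, and Emcn had 2, Elk3 and Mef2c. Plvap and Cldn5 had 1 each, Efnb2 and Ramp2, and Cdh5, Esam and Egfl7 had none. The genes most like the mean of the 8 members other than Sox17 and Sox18 were Cx3cr1, Rhbdl3, Nfu1, Gstz1, Mtres1 and Cdkn1b. The r of Cx3cr1 was 0.95, or 0.86 without wildtype 3 and wildtype 2. Of the 50 genes nearest to this mean 0 were in the endothelial lists, which held 0.615% of the 8458 genes ranked there.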

How the data were processed

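The deposited table holds a linear intensity for each probe set and array. Its trimmed means are all about 250.1, so the values had been scaled per array; an Affymetrix 3′ kit was used, per the labels' protocols. The software that summarised the probes and the array's genome build are not given in the sources used here. Of 22690 probe sets, only the 20380 with 1 symbol were used, not the 691 with several, the 1555 with none or the 64 controls. Intensities were taken as log2(intensity + 16) and quantile normalised, since array quartiles differed by up to 0.29. A gene was represented by its brightest probe set. The tests used limma 3.58.1 (R 4.3.3) with a variance trend and Benjamini-Hochberg adjustment over 12393 genes (threshold 0.05), over all 12 arrays, within each run, between runs, and for the difference between runs. Signal over background was read against 27 bacterial controls. Calculations were tested on simulated data. Named genes were to be all members, any list gene called in a comparison, the 6 most alike, and up to 4 genes per list with the smallest adjusted p over all 12 arrays; of the last the text gives only some, and Pecam1, Tie1 and Vwf, and the endothelial genes among the 50 most alike, were added with values known. The members and lists were chosen with earlier results of these data known. Plots used matplotlib 3.10.9. Precision is limited by the number of arrays.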

Additional observations from a re-analysis of the deposited data

Results flagged for a closer look

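Sox17 in wildtype 3 read 8.89, where the other 5 wildtype arrays lay between 7.67 and 7.88. Its gap to the nearest array was 0.831 of the group's range, above Dixon's critical value of 0.625 for 6 arrays. Of 20 groups examined (10 genes in each genotype) this was the only 1 marked, and chance marks about 1 in 20. Without wildtype 3 the Sox17 difference over all 12 arrays was 0.92 (SE 0.16; limma adjusted p = 0.0981).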

How the results depend on the processing

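Over all 12 arrays the 10 differences kept their sign under every alternative run, and 0 members stayed the count of calls except with terms for run and 5′ to 3′ ratio, which called 1, Sox17. With arrays left out, members whose groups did not overlap went from 0 to 1, with the share of all genes not given. The genes called went from 3 to 1 with the mean of all probe sets and 1 without the variance trend, to 13 with a term for run, 13 with run and Y-linked signal, 52 with run and 5′ to 3′ ratio and 0 at an adjusted p of 0.01, and ranged from 0 to 4 with an array left out. In the lower run 74 genes became 39 without the trend, 186 with array weights, 188 with all groups in the fit and 34 at 0.01, and 30 to 87 with an array left out. In the higher run 1 became 2 with arrays centred on medians, 0 with the mean of probe sets, 0 without the trend, 3 with robust variances and 2 with all groups in the fit, and 0 to 1 with an array left out. For the difference between runs 41 became 18 with centred arrays, 24 without the trend, 88 with array weights and 13 at 0.01, and 16 to 47 with an array left out. Between runs, wildtype, 632 became 302 without the trend and 213 at 0.01, and 227 to 470 with an array left out. In activated cultures 345 became 197 without the trend, 805 with array weights, 605 with all groups in the fit and 121 at 0.01, and 91 to 425 with an array left out.

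Some members changed sign. In the lower run Cdh5 was at 0.22 with the mean of probe sets. With an array left out, Cdh5 lay between -0.35 and 0.042 and Kdr between -0.45 and 0.046 in the lower run, and Flt1 between -0.024 and 0.28 and Egfl7 between -0.075 and 0.19 in the higher run. For the difference between runs, Sox17 lay between -0.17 and 0.44, Sox18 between -0.028 and 0.45, Plvap between -0.25 and 0.11, Cldn5 between -0.14 and 0.34 and the members' median between -0.11 and 0.28. Between the runs of wildtype, Sox18 was at 0.017 and Cldn5 at 0.027 without quantile normalisation, and at 0.026 and 0.035 with centred arrays. With an array left out, Sox17 lay there between -0.57 and 0.041, Sox18 between -0.27 and 0.21, Flt1 between -0.44 and 0.12, Cldn5 between -0.23 and 0.15, Egfl7 between -0.43 and 0.00 and the median between -0.50 and 0.021. In activated cultures Kdr was at 0.024 with array weights. With an array left out, Sox17 lay there between -0.41 and 0.090, Sox18 between -0.053 and 0.31, Kdr between -0.20 and 0.22, Emcn between -0.46 and 0.072, Cldn5 between -0.17 and 0.31 and the median between -0.35 and 0.061.

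Members called between runs ranged from 0 to 1 in wildtype with an array left out, and array weights called 1 in activated cultures. Members separated upward in the lower run were 2 without quantile normalisation and 2 with the mean of probe sets, and ranged from 0 to 5 with an array left out; 0 to 1 separated downward. Between the wildtype runs, members above 0 were 3 without quantile normalisation and 3 with centred arrays, and ranged from 1 to 6 with an array left out, and those separated downward from 3 to 5. Between the activated runs members above 0 ranged from 1 to 6, those separated upward from 0 to 1 and downward from 3 to 5. These counts over arrays left out were chosen after seeing the data, and the share of all genes beside them is not given. The causes of these shifts were not tested. With few arrays in each group and run, differences of the size seen in most members were within the spread between arrays. No paired analysis was possible because the labels carry no replicate numbers shared between groups.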
